A study of Mus musculus with 32 samples.

Results

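Mmp2, Mmp3, Mmp13 and Mmp14 encode 4 matrix metalloproteinases, and they were taken by name from the 2544 genes listed in at least 1 of 2 deposited expression tables from mouse joint tissue. The synovium table (1178 genes) holds Mmp2, Mmp3 and Mmp14, and the cartilage table (1606 genes) holds Mmp2, Mmp3 and Mmp13. Mmp13 in synovium and Mmp14 in cartilage were not analysed here. RNA from C57BL/6 mice was sequenced in animals labelled Control, in the MMS groups D3, D7 and D14, and in groups named R1 and R2. Synovium had n = 3 samples in each of these 6 groups, and cartilage had n = 2 in each of them and in a further group, MMS D28. What MMS, R1, R2 and the D numbers stand for is not written in the labels, and neither age, sex nor treatment beyond the group name is given. Whether the replicates of a group are separate animals is not stated either, so p-values here measure only the spread between these samples.

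Matrix metalloproteinases are zinc-dependent endopeptidases that cleave collagens, proteoglycans and other proteins of the extracellular matrix. They are made as inactive proenzymes, are switched on by removal of the propeptide and are held in check by the tissue inhibitors of metalloproteinases, the TIMPs. Mmp14 is anchored in the cell membrane and, together with Timp2, activates pro-Mmp2. Mmp2, gelatinase A, degrades denatured collagen and basement membrane collagen. Mmp3, stromelysin, cleaves proteoglycans and activates other proenzymes of the family. Mmp13, collagenase 3, cuts fibrillar collagen, type II collagen of cartilage included, and is made by hypertrophic chondrocytes.

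On GRCm38 (GENCODE vM21), Mmp2 (ENSMUSG00000031740.8) spans chromosome 8 from 92827291 to 92853420, and Mmp14 (ENSMUSG00000000957.11) spans chromosome 14 from 54431612 to 54445364. Mmp13 (ENSMUSG00000050578.10, 7272514 to 7283331) and Mmp3 (ENSMUSG00000043613.8, 7445822 to 7455975) lie in 1 cluster on chromosome 9. They are separated by 162 kb, with Mmp12 and Mmp1b between them. That cluster holds 10 Mmp genes over 427 kb in RefSeq, of which Mmp3 is in both tables and Mmp13 and Mmp8 are in the cartilage table. All 4 members lie on the plus strand. The sequences before the start sites are shown for the members found in the RefSeq promoter table (3 of 4, GRCm38.p6). Each line gives the 250 bases before the start site, 5′ to 3′, and capitals mark 3 motifs searched on both strands: the AP-1 site TGAGTCA, the TATA box TATAAA and the RUNX core ACCACA.
Mmp3, chr9:7445572-7445821, plus strand: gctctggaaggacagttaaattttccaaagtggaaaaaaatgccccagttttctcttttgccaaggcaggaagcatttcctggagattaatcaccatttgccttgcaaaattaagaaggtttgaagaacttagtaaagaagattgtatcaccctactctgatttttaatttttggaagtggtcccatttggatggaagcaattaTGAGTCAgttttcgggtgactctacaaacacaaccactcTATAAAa
Mmp13, chr9:7272264-7272513, plus strand: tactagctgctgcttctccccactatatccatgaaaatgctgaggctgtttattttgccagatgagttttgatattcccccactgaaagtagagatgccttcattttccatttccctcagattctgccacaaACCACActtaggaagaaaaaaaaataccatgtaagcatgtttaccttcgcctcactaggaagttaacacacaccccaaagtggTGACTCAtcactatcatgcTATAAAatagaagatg
Mmp14, chr14:54431348-54431597, plus strand: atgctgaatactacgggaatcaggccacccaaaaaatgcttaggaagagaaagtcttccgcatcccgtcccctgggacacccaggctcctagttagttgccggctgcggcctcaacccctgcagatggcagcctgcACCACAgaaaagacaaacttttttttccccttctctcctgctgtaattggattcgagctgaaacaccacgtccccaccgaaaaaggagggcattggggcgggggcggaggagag
Mmp3 has the AP-1 letters at -46 to -40 and the TATA letters at -7 to -2 from the RefSeq start. Mmp13 has the AP-1 letters on the other strand (TGACTCA, -35 to -29), a TATA box at -16 to -11 and a RUNX core at -118 to -113. Mmp14 has only the RUNX core, at -114 to -109. Of all 32851 windows of this length, 4.46% hold the AP-1 letters, 12.4% the TATA letters, 14.05% the RUNX core and 0.721% both AP-1 and TATA. No 2 of these motifs overlap in the windows shown, and a match of letters is a description of the window only.

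The synovium values are FPKM, a level per transcript length, so members can be compared with each other there. The unit of the cartilage values is not stated, so levels are compared between groups only. Sequencing depth is unknown. Because the tables list selected genes, the sum of a sample's values (70104.5 to 132996 in synovium, 108504 to 149830 in cartilage) is no depth. In synovium 98.0% of the listed genes differed at least 1.5-fold between the MMS D14 and Control means, and in cartilage 99.0% did so between MMS D28 and Control. No source used here says how the listed genes were chosen. From these shares, it is inferred that most were listed for differing in MMS D14 in synovium and in MMS D28 in cartilage, so counts of calls in those comparisons are high for any listed gene. In synovium, replicate 3 of every group but R1 stands apart, with Gm2023 at 1.71 to 3.36 FPKM against 12.59 to 56.19 in the other 13 libraries. Gm2023 and Gm6958 were the 2 genes of 1178 that set these 5 libraries apart by over 1 on the log2 scale in every group. Changes are log2 differences of the value plus 1, which understate the change of low genes, with the SE from limma. A member is said to have risen or fallen where limma's Benjamini-Hochberg adjusted p over all genes of the table was under 0.05.

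In synovium the 3 measured members rose together: each was higher in every MMS group, in R1 and in R2 than in Control, and each was highest in MMS D14. In MMS D14, Mmp2 was at 8.004 times its Control mean, Mmp3 at 7.993 times and Mmp14 at 5.79 times. In R1 and R2 all 3 were lower than in MMS D14 and above Control. How many of all listed synovium genes have samples lying apart between groups is not given. Nearly all listed genes differ in MMS D14, so a lack of overlap in synovium is a description only.

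Mmp14, the membrane-anchored activator, had 53.76, 58.21 and 50.79 FPKM in the Control samples. It had 100.81, 104.85 and 89.1 in MMS D3, 216.76, 147.16 and 229.95 in MMS D7, and 248.27, 338.52 and 355.58 in MMS D14. R1 samples had 149.5, 114.18 and 126.86, and R2 samples had 151.88, 140.17 and 90.12. No sample of any other group was as low as the highest Control sample, and the 3 MMS D14 samples were above all others. The means ran in the order MMS D14, MMS D7, R1, R2, MMS D3 and Control, and the groups between MMS D14 and Control overlapped with their neighbours in that order. Mmp14 rose by 0.84 (SE 0.21) in MMS D3 (adjusted p = 0.00339), by 1.82 in MMS D7 (3.59e-06) and by 2.50 in MMS D14 (1.92e-08).

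Mmp2, the gelatinase that Mmp14 activates, was the most abundant member in every synovium group. It had 125.62, 127.36 and 99.42 FPKM in Control, 196.48, 243.31 and 208.01 in MMS D3, and 422.1, 310.09 and 391.52 in MMS D7. The MMS D14 samples had 877.48, 977.72 and 965.26, the R1 samples 709.02, 404.68 and 509.07, and the R2 samples 620.06, 564.49 and 415.97. The MMS groups did not overlap with each other or with Control, whereas R1, R2 and MMS D7 overlapped. In MMS D14 the mean of 940.2 ± 54.6 FPKM (SD, n = 3) placed Mmp2 12th from the top of the 1178 listed genes, against 154th in Control. Mmp2 rose by 0.88 (SE 0.20) in MMS D3 (adjusted p = 0.00225), by 1.66 in MMS D7 (5.59e-06) and by 2.997 in MMS D14 (4.48e-09).

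Mmp3, stromelysin, was the least abundant of the 3, with 8.8, 5.99 and 4.96 FPKM in Control. It had 19, 19.27 and 32 in MMS D3, 46.8, 21.5 and 43.35 in MMS D7, and 51.63, 47.05 and 59.19 in MMS D14. R1 samples had 34.16, 23.63 and 30.29, and R2 samples 37.4, 35.09 and 18.88. All Control samples were below every other sample, and all MMS D14 samples were above every other sample, while MMS D7, R2, R1 and MMS D3 overlapped with their neighbours in this order. Mmp3 rose by 1.68 (SE 0.31) in MMS D3 (adjusted p = 0.000409), by 2.29 in MMS D7 (9.54e-06) and by 2.85 in MMS D14 (2.19e-07). In MMS D3 the mean of Mmp3 was 44.5% of its MMS D14 mean, against 31.3% for Mmp14 and 23.0% for Mmp2.

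**Figure D1:**
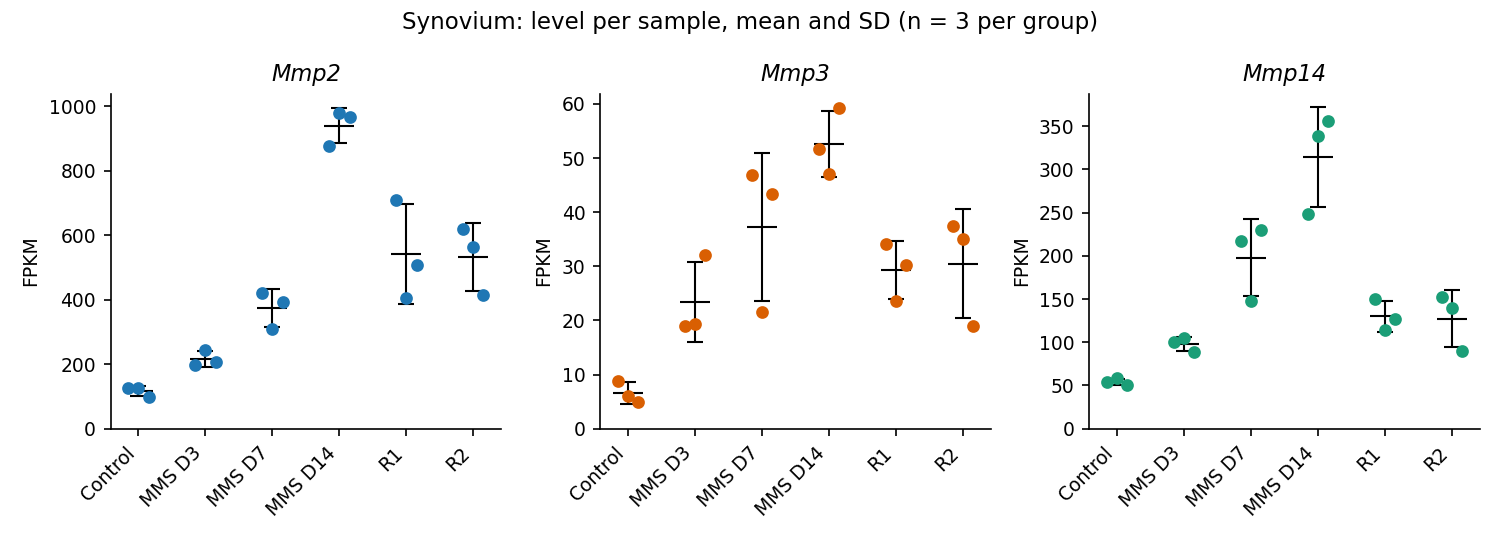
FPKM of Mmp2, Mmp3 and Mmp14 in each of the 18 synovium samples (points), with the mean and SD of each group (bars, n = 3), by group on the x axis. In each panel the Control samples are the lowest and the MMS D14 samples the highest, with R1 and R2 between them.

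All 3 members were called higher in MMS D3, where 16.3% of the 1178 genes were called higher. The same 3 of 3 stood against 24.1% in MMS D7 and 27.7% in MMS D14, where 96.9% were called in either direction. The median change of the 3 members was 0.88, 1.82 and 2.85 in MMS D3, MMS D7 and MMS D14, against -0.34, -0.65 and -1.08 over all listed genes. Centring each sample on its median moved the last of these all-gene medians to -0.56 and left all 3 members called higher in each MMS group.

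Between neighbouring MMS groups by D number, Mmp14 and Mmp2 rose at each step and Mmp3 passed the test at neither. From MMS D3 to MMS D7, Mmp14 rose by 0.98 (SE 0.21, adjusted p = 0.00396) and Mmp2 by 0.79 (SE 0.20, adjusted p = 0.0113). Mmp3 differed by 0.61 (95% interval -0.03 to 1.26, adjusted p = 0.126), and 12.1% of all genes were called higher. The Mmp2 call was lost in a fit of these 2 groups alone (adjusted p = 0.0553) and without the 5 libraries that stand apart (0.0537). Mmp3 was called without replicate 2 of MMS D7 (change 0.96, adjusted p = 0.0269), the sample with 21.5 FPKM. From MMS D7 to MMS D14, Mmp2 rose by 1.34 (SE 0.20, adjusted p = 0.000475), Mmp14 rose by 0.67 (SE 0.21, adjusted p = 0.0157), and 12.6% of all genes were called higher. Mmp3 differed by 0.56 (95% interval -0.09 to 1.204, adjusted p = 0.122). The Mmp14 call was lost without replicate 2 of MMS D7 (adjusted p = 0.0911) or replicate 2 of MMS D14 (0.0537).

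In R1 and R2 the 3 members were above Control and below MMS D14. Against Control, Mmp2 was higher by 2.16 in both R1 and R2 (SE 0.20, adjusted p = 4.75e-06 and 4.80e-06). Mmp3 was higher by 2.02 and 2.03 (SE 0.31, adjusted p = 0.000125 and 0.000151), and Mmp14 by 1.24 and 1.18 (SE 0.21, adjusted p = 0.000236 and 0.000360). Of all genes, 15.9% were called higher in R1 and 15.7% in R2. By size of rise, Mmp2 ranked 7th of 1178 genes in R1 and in R2, and Mmp3 ranked 11th and 9th. Mmp14 ranked 44th and 52nd.

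Against MMS D14, Mmp14 fell by 1.26 in R1 and by 1.31 in R2 (SE 0.21, adjusted p = 7.26e-05 and 4.76e-05). Mmp2 fell by 0.83 in each (SE 0.20, adjusted p = 0.00145 in both), and Mmp3 fell by 0.83 and by 0.82 (SE 0.31, adjusted p = 0.0180 and 0.0189). The calls of all 3 as lower stood against 25.8% of genes in R1 and 25.5% in R2, and nearly all listed genes differ in MMS D14. For Mmp3, the R1 call was lost without replicate 3 of MMS D14 (adjusted p = 0.0529) or replicate 2 of R1 (0.0707). Its R2 call was lost without replicate 3 of MMS D14 (0.0562), without replicate 3 of R2 (change -0.52, adjusted p = 0.123) and without the 5 libraries that stand apart (change -0.43, adjusted p = 0.169). As a share of the MMS D14 mean, R1 and R2 were at 57.5% and 56.7% for Mmp2, at 55.8% and 57.9% for Mmp3, and at 41.4% and 40.6% for Mmp14.

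R2 and R1 were not told apart in any member. The difference was -0.00 for Mmp2 (95% interval -0.43 to 0.43), 0.01 for Mmp3 (-0.64 to 0.65) and -0.06 for Mmp14 (-0.50 to 0.39), with adjusted p of 0.998, 0.998 and 0.980. limma called 0 of 1178 genes here (0.0%), with 52 at an unadjusted p under 0.05, and 0 without the variance trend. Without the 5 libraries that stand apart it called 14, none of them a member.

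**Figure D2:**
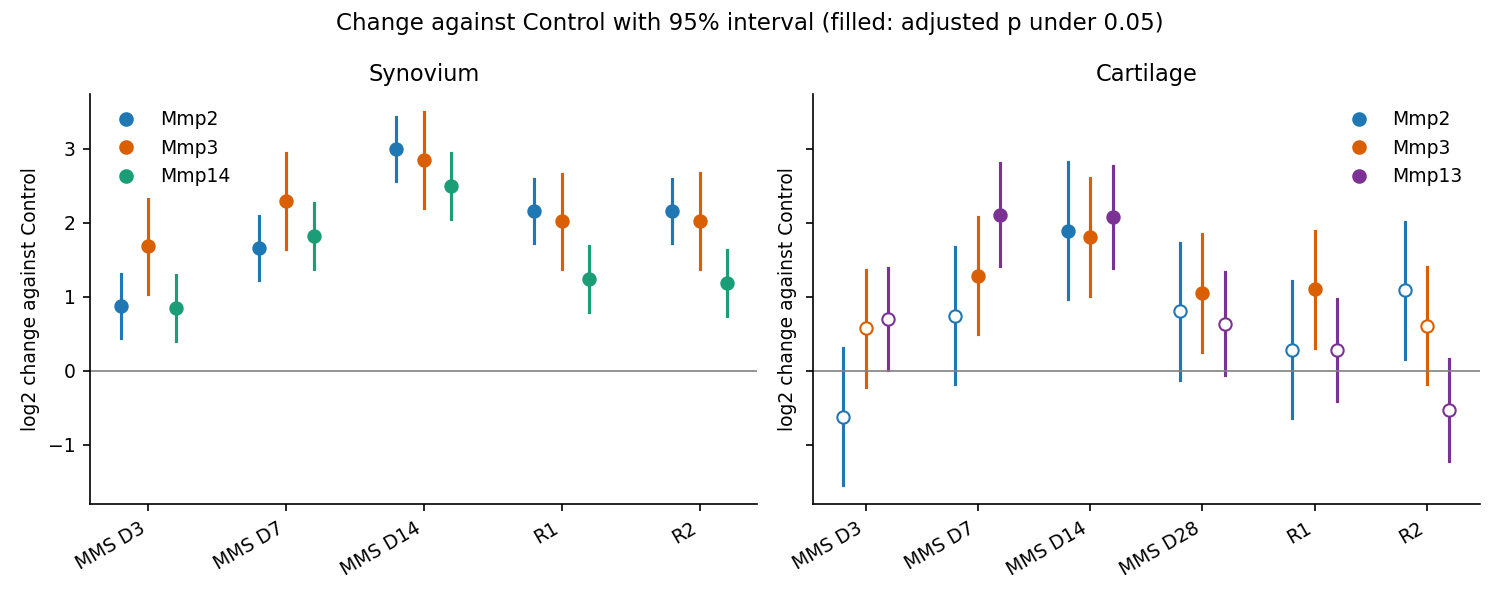
Log2 change against Control (y axis) of each member in each group of synovium (left) and cartilage (right), as point and 95% interval; filled points have an adjusted p under 0.05. All 15 synovium points are filled, and 7 of 18 cartilage points are.

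Ratios within a sample do not depend on a factor shared by all genes of that sample, and they were chosen after the values were seen. Mmp2 over Mmp14 was 2.16 ± 0.191 (SD, n = 3) in Control, 2.20 ± 0.219 in MMS D3 and 1.92 ± 0.204 in MMS D7. It was 3.05 ± 0.432 in MMS D14, and R1 and R2 had 4.10 ± 0.604 and 4.24 ± 0.325. Every sample of MMS D14, R1 and R2 had a higher ratio than every Control sample. The exact two-sided permutation p was 0.1 for each of these 3 groups, the smallest that 3 samples against 3 can give, and 0.182 after adjustment over the 20 ratio comparisons made.

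Timp1, an inhibitor of these proteinases, had 72.5 ± 20.2 FPKM in Control and 526 ± 296, 552 ± 53.6 and 579 ± 307 at MMS D3, D7 and D14 (SD, n = 3). It had 145 ± 57.5 FPKM in R1 and 99.8 ± 25.8 in R2. Mmp2 over Timp1 was 1.67 ± 0.270 in Control, 0.506 ± 0.253 in MMS D3 and 0.683 ± 0.124 in MMS D7 (SD, n = 3). It was 1.94 ± 0.881 in MMS D14, and R1 and R2 had 4.28 ± 2.28 and 5.41 ± 0.576. All MMS D3 and MMS D7 samples were below all Control samples, all R1 and R2 samples were above them, and MMS D14 overlapped with them. The exact permutation p was 0.1 in each of the 4 groups that did not overlap (adjusted 0.182) and 0.9 in MMS D14. The 3 R1 ratios were 6.47, 1.91 and 4.47, so R1 varied more than R2. Mmp2 over Mmp3 was 18.5 ± 3.73 in Control, 9.82 ± 3.10 in MMS D3, 10.8 ± 3.12 in MMS D7, and 18.0 to 18.2 in MMS D14, R1 and R2. The MMS D3 samples were all below the Control samples (exact permutation p = 0.1, adjusted 0.182), and the MMS D7 samples overlapped with them (0.2, adjusted 0.267). Mmp14 over Mmp3 was 8.69 ± 2.25 in Control, 5.59 ± 1.13 in MMS D7 and 6.00 ± 1.19 in MMS D14, which overlapped with Control (0.2 in each). It was 4.51 ± 1.496 in MMS D3, 4.47 ± 0.331 in R1 and 4.28 ± 0.432 in R2, all samples below Control (exact permutation p = 0.1 in each, adjusted 0.182).

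**Figure D3:**
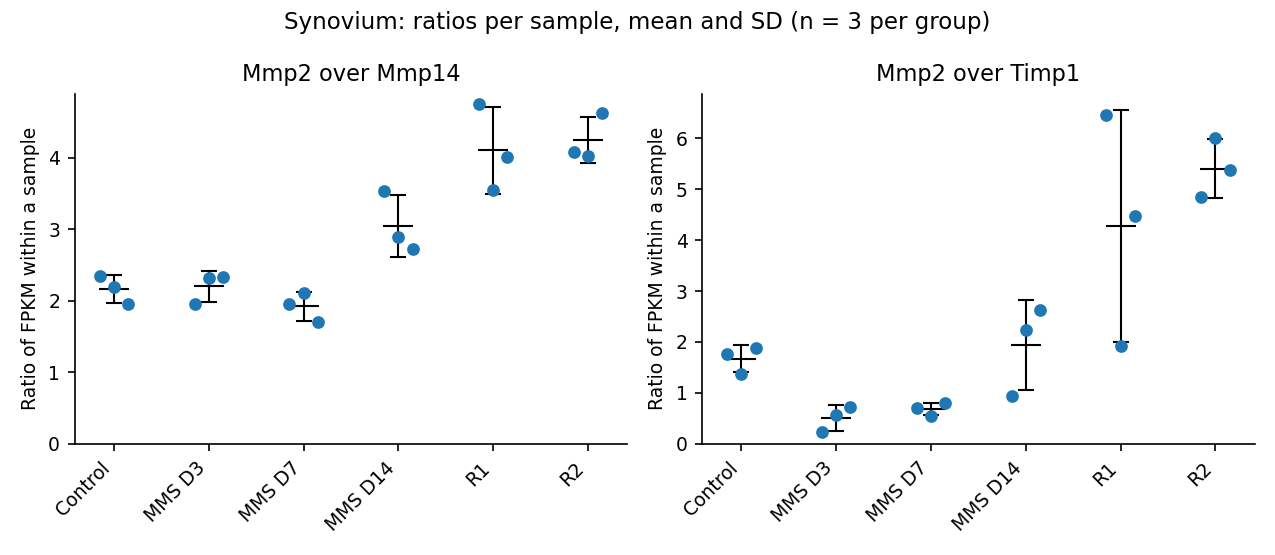
Ratio of Mmp2 to Mmp14 (left) and of Mmp2 to Timp1 (right), from FPKM within each synovium sample (points), with mean and SD per group (n = 3). Both ratios have their highest means in R1 and R2, and the ratio to Timp1 lies below all Control samples in MMS D3 and MMS D7.

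The other inhibitors in the synovium table, Timp3 and Timp4, fell in MMS D7 and MMS D14, where Timp1 rose. Timp1 rose by 2.73, 2.94 and 2.89 at MMS D3, D7 and D14 and by 0.96 in R1 (adjusted p = 0.0405), and it differed by 0.46 in R2 (adjusted p = 0.312). Timp3, which is bound to the matrix, fell by 1.09 in MMS D7 and by 1.30 in MMS D14. Timp4 fell by 1.06 and 1.86 at these 2 groups, by 1.18 in R1 and by 1.59 in R2. The further Mmp genes of the table, Mmp19 and Mmp23, both rose in MMS D7 and MMS D14, by 1.47 and 1.69 in MMS D14. In R1 and R2 Mmp23 was higher by 0.53 and 0.61 (adjusted p = 0.0420 and 0.0212), and Mmp19 differed by 0.19 and 0.29 (adjusted p = 0.462 and 0.274).

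In MMS D14 of synovium nearly all genes of the table passed, 27.7% as higher and 69.3% as lower, and the list counts that follow stand against these shares. Of 6 listed ADAM and ADAMTS proteases, relatives that shed surface proteins or cleave procollagens and aggrecan, 4 rose and 2 fell in MMS D14. Adam12 rose by 2.26 and Adamts14, a procollagen N-proteinase, by 1.37, whereas Adamts5, an aggrecanase, fell by 0.81 and Adam33 by 0.99. Of 5 genes of the plasmin and serine protease system, 3 rose and 1 fell in MMS D14. Plat, tissue plasminogen activator, rose by 2.73. Ctsk, the collagen-cleaving cathepsin K, was the cathepsin in the table and rose in all 5 groups, by 1.97 in MMS D14. The median change in MMS D14 was 1.12 over the ADAM genes and 1.11 over the serine protease list, against -1.08 over all genes.

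Genes of the proteins that these enzymes cut rose as well. All 8 listed collagen genes rose in each group but MMS D3, and 4 of 8 rose in MMS D3. Their median change was 0.55 in MMS D3, 2.34 in MMS D14, and 0.96 and 1.01 in the R1 and R2 groups. Col1a1 and Col1a2, the chains of type I collagen, rose by 2.83 and 2.46 in MMS D14, and Col3a1 by 2.27. All 10 other matrix genes rose in MMS D7 and MMS D14, and 8 of 10 rose in R1 and in R2. Among them Spp1, osteopontin, rose by 7.59 and Tnc, tenascin C, by 5.51 in MMS D14. Of 5 inducers and transcription factors, Runx1, Hif1a, Sox9 and Fos rose in MMS D14 and Epas1 fell. Runx1 rose by 2.75 and Fos, a subunit of AP-1, by 1.38 (adjusted p = 0.0258).

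**Figure D4:**
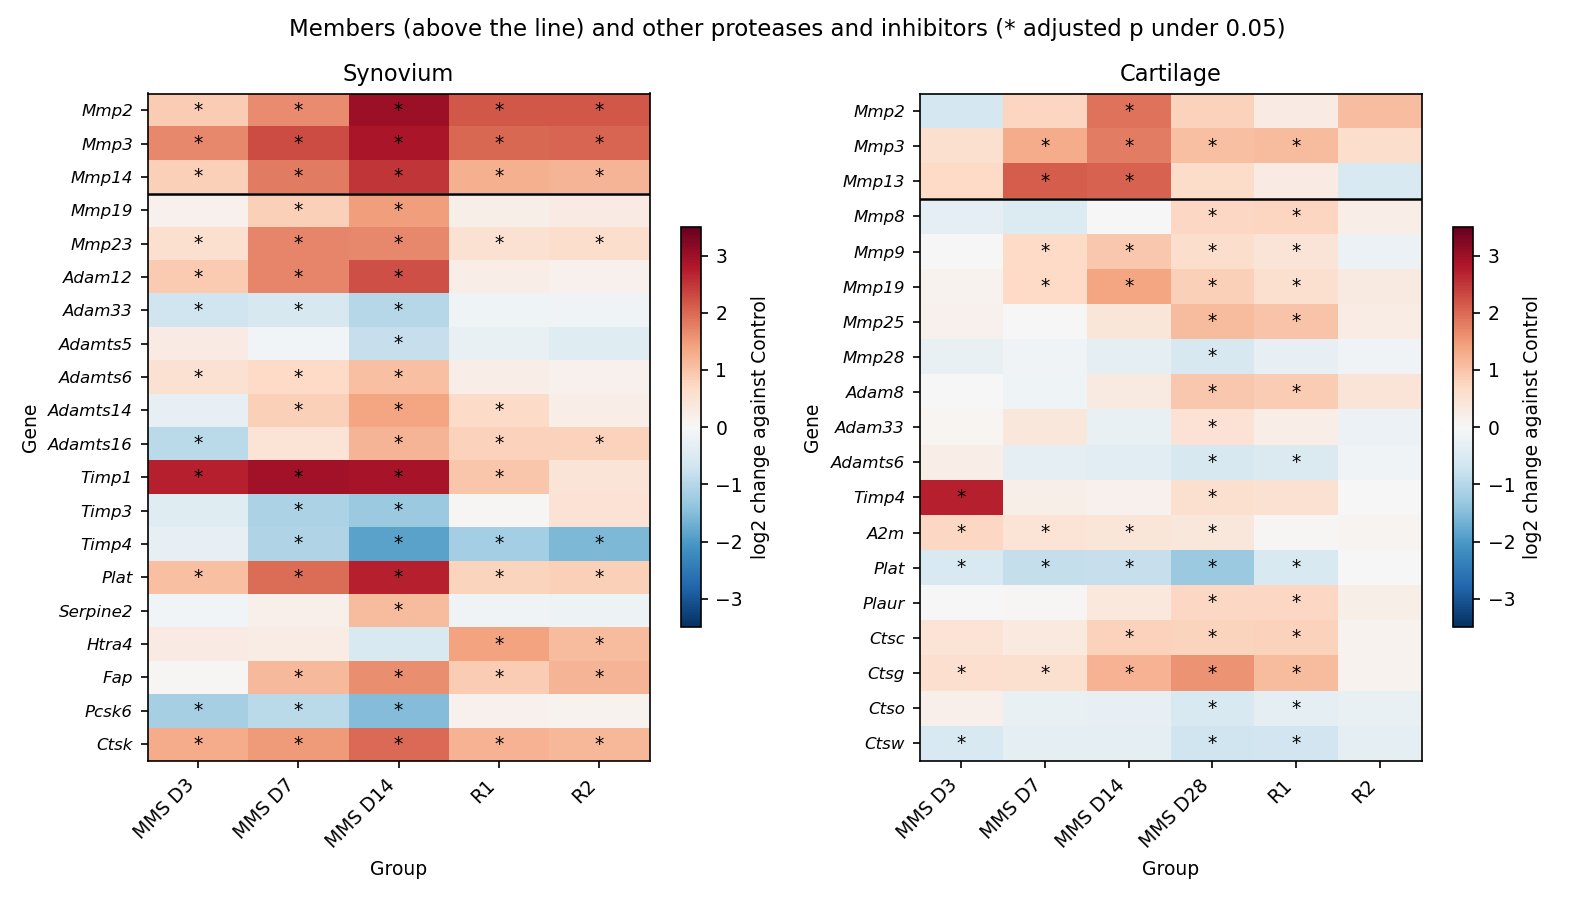
Log2 change against Control (colour) of the members, above the line, and of the other listed proteases and inhibitors, below it, by group, for synovium (left) and cartilage (right); asterisks mark an adjusted p under 0.05. In MMS D14 of synovium the largest rises are those of Mmp2, Timp1, Mmp3 and Plat, and in cartilage Mmp13 has the largest rise in MMS D7 and in MMS D14.

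In synovium some cell type markers moved with the members and others moved the opposite way, and their part in these results was not tested. The 4 of 10 fibroblast markers in the table summed to 1627 to 1870 FPKM in Control, 2358 to 3549 in MMS D3, 6191 to 7473 in MMS D7 and 9448 to 11016 in MMS D14. In R1 they summed to 3585 to 4181, in R2 to 3340 to 4700. These 4 are Lum, Fbn1, Col1a1 and Col3a1, which also stand in the matrix gene lists above. The 14 of 14 adipocyte markers summed to 28145 to 34112 in Control, 13905 to 23778 in MMS D3, 12831 to 14181 in MMS D7 and 4846 to 7863 in MMS D14. They summed to 14199 to 15977 in R1 and 13852 to 15881 in R2. The 4 of 6 markers of lining fibroblasts summed to 599.6 to 768.7 in Control, 368 to 564 in MMS D3, 461 to 576 in MMS D7, 327 to 419 in MMS D14, and to 1097 to 1391 and 909 to 1870 in the R1 and R2 groups. The 3 of 13 chondrocyte markers summed to 181 to 209 in Control and 511 to 590.2 in MMS D14, a sum made mostly of Comp. In MMS D14 Comp rose by 1.68 and Sox9 by 1.39, and Cytl1 fell by 0.97. The 6 of 11 cell cycle markers summed to 13.2 to 16.0 in Control, 25.4 to 99.7 in MMS D3, 85.8 to 114 in MMS D7, 83.0 to 185 in MMS D14, and to 14.8 to 32.7 and 11.2 to 18.2 in the R1 and R2 groups. The 3 of 7 hypertrophic chondrocyte markers summed to 10.98 to 12.2 in Control and 557 to 1324 in MMS D14, with Spp1 and Ibsp higher and Alpl lower by 0.96. Kdr, the 1 of 7 endothelial markers in the table, was at 22.2 to 26 in Control and 8.12 to 11.1 in MMS D14. No measured marker was at 0 in any sample. In bulk tissue, fewer cells of a type and less RNA per cell cannot be told apart.

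Within the synovium groups the members tended to be low in the same library. Replicate 3 of Control, replicate 2 of MMS D7, replicate 2 of R1 and replicate 3 of R2 were the lowest of their group in all 3 members, which makes 4 of 6 groups. Replicate 1 was the highest in all 3 members in R1 and in R2. How often other genes of the table share their lowest or highest library is not given. Replicate 3 of R2, the lowest of that group, had the lowest fibroblast sum of the group (3340) and the highest lining fibroblast sum (1870).

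In cartilage the members moved less evenly. Mmp13 and Mmp3 rose in MMS D7 and MMS D14, and Mmp3 rose in MMS D28 and R1 as well. Mmp2 rose in MMS D14 only, and none of the 3 passed the test in MMS D3 or R2. Mmp13 was 4.37-fold its Control mean in MMS D7 and 4.24-fold in MMS D14, and 1.57-fold in MMS D28. With 2 samples in a group, single libraries decided several calls, and these are named beside each value. The share of all listed genes whose samples lie apart from Control is not given, so a lack of overlap is a description only.

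Mmp13, the collagenase of type II collagen, had values of 114.89 and 101 in Control, 201.03 and 153.11 in MMS D3, 527.28 and 415.42 in MMS D7, and 477.95 and 438.1 in MMS D14. It had 145.27 and 194.33 in MMS D28, 123.85 and 138.72 in R1, and 116.34 and 47.33 in R2. Both samples of every MMS group and of R1 were above both Control samples, and R2 overlapped with Control. The MMS D7 and MMS D14 samples overlapped and stood above all others. Mmp13 rose by 2.11 (SE 0.32) in MMS D7 (adjusted p = 0.000571) and by 2.08 in MMS D14 (0.000302). It differed by 0.70 (95% interval 0.01 to 1.39) in MMS D3 (adjusted p = 0.128), by 0.64 (-0.05 to 1.33) in MMS D28 (0.0693), by 0.28 in R1 (0.422) and by -0.53 in R2 (0.426). The MMS D28 difference was called after centring each sample on its median (0.80, adjusted p = 0.0247). The MMS D28, MMS D3 and R1 differences were called in fits of the 2 groups alone (adjusted p = 0.0178, 0.00926 and 0.0465), and the MMS D28 and MMS D3 differences were called without either R2 replicate (0.00829 and 0.00839 for MMS D28, 0.0251 and 0.0255 for MMS D3).

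Mmp3 had values of 5.74 and 3.91 in Control, 9.94 and 5.67 in MMS D3, 16.5 and 10.24 in MMS D7, and 26.72 and 13.57 in MMS D14. It had 8.12 and 14.46 in MMS D28, 9.83 and 13 in R1, and 9.63 and 6.26 in R2. Samples of neighbouring groups overlapped throughout the order MMS D14, MMS D7, R1, MMS D28, R2, MMS D3 and Control, and only MMS D3 overlapped with Control itself. Mmp3 rose by 1.29 (SE 0.37) in MMS D7 (adjusted p = 0.0243), by 1.80 in MMS D14 (0.00184), by 1.05 in MMS D28 (0.0157) and by 1.10 in R1 (0.0206). It differed by 0.57 in MMS D3 (adjusted p = 0.282) and by 0.61 in R2 (0.426). Without replicate 2 of Control, the sample with 3.91, the calls in MMS D7, MMS D28 and R1 were lost (adjusted p = 0.151, 0.0976 and 0.107). They were lost likewise without replicate 1 of MMS D7 (0.200), replicate 2 of MMS D28 (0.148) and replicate 2 of R1 (0.110).

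Mmp2 had values of 41.11 and 45.19 in Control, 35.15 and 21.68 in MMS D3, 78.77 and 67.08 in MMS D7, and 180.63 and 146.94 in MMS D14. It had 42.51 and 135.43 in MMS D28, 51.3 and 54.15 in R1, and 127.15 and 67.28 in R2. Both MMS D3 samples were below both Control samples, and both MMS D14 samples were above all others. The MMS D28 samples lay far apart, one near Control and one near MMS D14. Mmp2 rose by 1.89 (SE 0.43) in MMS D14 (adjusted p = 0.00334). It differed by -0.62 (95% interval -1.55 to 0.30) in MMS D3 (adjusted p = 0.312), by 0.74 in MMS D7 (0.245), by 0.80 in MMS D28 (0.0837), by 0.28 in R1 (0.543) and by 1.08 in R2 (0.240). The MMS D28 difference was 1.63 without replicate 1 of that group (adjusted p = 0.00319) and -0.02 without replicate 2 (0.955), and it was called after centring (0.97, adjusted p = 0.0348). The MMS D3, MMS D7, MMS D28 and R1 differences were called in fits of the 2 groups alone (adjusted p = 0.0301, 0.0258, 0.0362 and 0.0272).

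**Figure D5:**
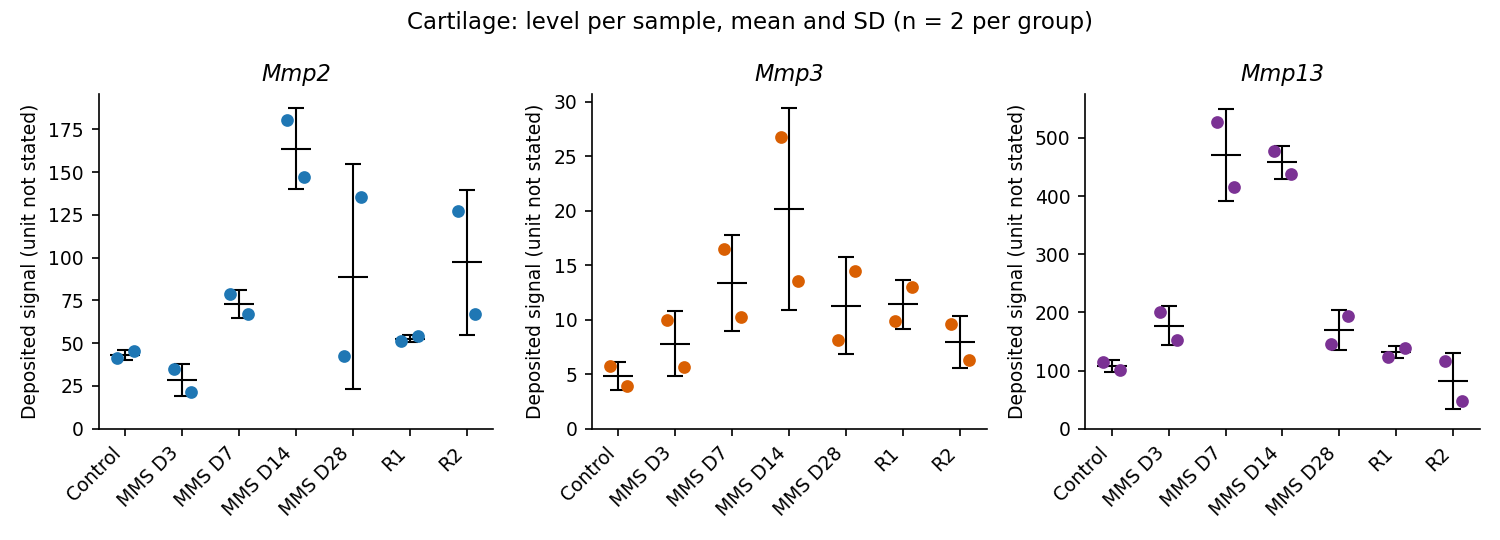
Deposited signal (unit not stated) of Mmp2, Mmp3 and Mmp13 in each of the 14 cartilage samples (points), with the mean and SD of each group (bars, n = 2), by group on the x axis. Mmp13 is high in MMS D7 and MMS D14 only, and the pair of MMS D28 samples lies far apart for Mmp2.

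Against Control, 0 of the 3 members were called in MMS D3, where 23.8% of the 1606 genes were called in either direction (383 genes, with 611 at an unadjusted p under 0.05). In MMS D7, 2 of 3 were called higher against 6.79% of genes, and Mmp13 had the 5th and Mmp3 the 20th largest rise of 1606. In MMS D14, 3 of 3 were called higher against 25.5%, with Mmp13 at rank 16, Mmp2 at 21 and Mmp3 at 24. In MMS D28, 1 of 3 was called higher against 42.7%, a comparison in which 97.3% of the listed genes were called in either direction. In R1, 1 of 3 was called higher against 36.0%. In R2, limma called 0 of 3 members and 12 of 1606 genes in either direction (0.747%), with 251 at an unadjusted p under 0.05. The R2 difference of Mmp2 was the 8th largest upward one of the 1606 and did not pass the test.

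Mmp13 was lower in MMS D28, R1 and R2 than in MMS D14. It fell by 1.44 in MMS D28 (SE 0.32, adjusted p = 0.0137, 16.1% of genes called lower), by 1.80 in R1 (0.00262, 9.78%) and by 2.61 in R2 (6.01e-05, 15.9%). The MMS D28 call was lost without replicate 1 of MMS D14 (adjusted p = 0.110) or replicate 1 of MMS D28 (0.130). Mmp2 fell by 1.61 in R1 (SE 0.43, adjusted p = 0.0201), a call lost without any 1 of the 4 libraries (adjusted p = 0.0586 to 0.126). It differed by -1.09 in MMS D28 (0.0792) and by -0.81 in R2 (0.153); the latter was called without either MMS D28 replicate (0.0357 and 0.0356). Mmp3 fell by 1.19 in R2 (SE 0.37, adjusted p = 0.0240), a call lost without replicate 1 of MMS D14 (0.188) or replicate 2 of R2 (0.145). It differed by -0.76 in MMS D28 (0.131) and by -0.71 in R1 (0.199). Without replicate 2 of MMS D28, the falls of Mmp2 and Mmp3 in that group were called (-1.91, adjusted p = 0.00377, and -1.14, 0.0454), as they were in a fit of the 2 groups alone (0.00124 and 0.0230).

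Among MMS D28, R1 and R2, Mmp13 was lower in R2 than in MMS D28 by 1.17 (SE 0.32, adjusted p = 0.00658, 37.2% of genes called lower), and the call was lost without replicate 2 of R2 (0.0640). Mmp2 and Mmp3 differed there by 0.28 and -0.43 (adjusted p = 0.541 and 0.275), and Mmp2 was called without replicate 2 of MMS D28 (1.10, adjusted p = 0.0111). R1 against MMS D28 gave no call among the 3 (7.6% of genes called in either direction, 122 genes, with 444 at an unadjusted p under 0.05), with differences of -0.36 for Mmp13, -0.52 for Mmp2 and 0.05 for Mmp3. R2 against R1 gave none either (35.6%, 571 genes, 803 at an unadjusted p under 0.05). Mmp13 differed by -0.81 (95% interval -1.50 to -0.12, adjusted p = 0.0624) and Mmp2 by 0.80 (-0.12 to 1.73, adjusted p = 0.146), so they lay on opposite sides of 0. Mmp13 was called there after centring (-0.88, adjusted p = 0.0381) and without replicate 1 of R2 (-1.45, 0.00430). Mmp2 was called there without either MMS D28 replicate (0.0363 and 0.0362).

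The cartilage libraries differed within groups in the same sense for all 3 members. In 6 of 7 groups 1 replicate was the higher in Mmp2, Mmp3 and Mmp13 alike, Control being the exception. How often other listed genes agree in this way is not given. In MMS D28, replicate 1 was the lower in all 3, and its 6 of 10 fibroblast markers summed to 803 against 1682 in replicate 2. The fibroblast sum was 1463 to 1720 in Control, 2205 to 3148 in MMS D3, 1896 to 2265 in MMS D7, 1634 to 2104 in MMS D14, and 1062 to 1253 and 1288 to 1589 in the R1 and R2 groups. Dcn makes up most of this sum, and its mean went from 1383 in Control to 958 in MMS D14, a difference that did not pass the test. Within the list Col3a1 rose by 3.20 (adjusted p = 0.000473) and Lum by 1.63 (adjusted p = 0.0105) in MMS D14, and Dpp4 fell by 0.73. The 10 of 13 chondrocyte markers summed to 16574 to 21411 in Control, 23357 to 24733 in MMS D3, 10364 to 15912 in MMS D7, 4556 to 4888 in MMS D14, 6121 to 7633 in MMS D28, 12101 to 12496 in R1 and 11667 to 14810 in R2. The 5 of 7 hypertrophic chondrocyte markers, cells known for Mmp13, summed to 2556 to 3007 in Control, 2803 to 2986 in MMS D3, 2968 to 3464 in MMS D7, 2073.5 to 2073.9 in MMS D14, 1284 to 1904 in MMS D28, 1983 to 2058 in R1 and 2488 to 2628 in R2. The 10 of 11 neutrophil markers, Mmp8 among them, summed to 29965 to 30448 in Control, 26198 to 29276 in MMS D3, 22130 to 29838 in MMS D7, 35600 to 44217 in MMS D14, 47255 to 61729 in MMS D28, 54628 to 56158 in R1 and 31022 to 39328 in R2, so neutrophil transcripts were present in the tissue labelled cartilage. The 4 of 9 T and B cell markers summed to 469 to 520 in Control, 284 to 329 in MMS D3, 169 to 182 in MMS D7, 146 to 158 in MMS D14, 91.1 to 152 in MMS D28, 213 to 234 in R1 and 620.04 to 621 in R2. The 9 of 11 osteoblast and osteocyte markers summed to 5676 to 5928 in Control, 2353 to 2929 in MMS D3, 3674 to 3832 in MMS D7, 4032 to 4702 in MMS D14, 2046 to 3408 in MMS D28, 2965 to 4625 in R1 and 5644 to 8501 in R2. No measured marker was at 0 in any sample. Of 11 skeletal muscle markers 1 was measured, at 15.28 in replicate 1 of Control and 90.28 in replicate 2. It was at 3.45 to 22.31 in the other groups. The 2 of 14 adipocyte markers summed to 107.11 in replicate 1 of Control and 325.38 in replicate 2, and to 34.45 to 125.64 elsewhere. The part of these markers in the members' values was not tested.

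In MMS D28 of cartilage 42.7% of all genes passed as higher and 54.6% as lower. In MMS D14, 25.5% passed as higher and 53.5% in either direction, and the cartilage list counts are read against these shares. Of 5 further Mmp genes in the cartilage table, 0 passed in MMS D3, 2 rose in MMS D7 and MMS D14, and 4 rose and 1 fell in MMS D28. Mmp19 rose by 0.70, 1.39 and 0.84 and Mmp9, gelatinase B, by 0.69, 0.93 and 0.62 in MMS D7, MMS D14 and MMS D28. Mmp8 and Mmp25, both made by neutrophils, rose in MMS D28 (0.74 and 1.10) and in R1 (0.74 and 1.0002). Mmp9 and Mmp19 rose in R1 too, by 0.44 and 0.57 (limma adjusted p = 0.0227 and 0.00857). In R1 36.0% of all genes were called higher. Mmp28 fell by 0.57 in MMS D28. Of the inhibitors, Timp4 rose by 2.71 in MMS D3 and by 0.55 in MMS D28, and A2m, which traps proteinases, rose by 0.72, 0.47, 0.42 and 0.40 in MMS D3, D7, D14 and D28. Of 2 plasmin system genes, Plat fell by 0.52, 0.85, 0.80 and 1.30 in MMS D3, MMS D7, MMS D14 and MMS D28. Plaur, the urokinase receptor, rose by 0.72 in MMS D28.

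Of 7 listed collagen genes in cartilage, 1 rose and 6 fell in MMS D28, with a median change of -0.95 against -0.49 over all genes. Col2a1, the main collagen of cartilage, fell by 1.27 and Col10a1, the collagen of hypertrophic chondrocytes, by 1.05. Col3a1 was the one that rose, by 1.87 in MMS D7, 3.20 in MMS D14 and 1.64 in MMS D28. In MMS D14, 2 of 7 collagen genes rose and 2 fell. Of 9 other matrix genes, 2 rose and 5 fell in MMS D14 and 7 fell in MMS D28. Cilp2 fell by 3.57 in MMS D14 and fell by 2.91 in MMS D28, and Acan, aggrecan, by 0.73 and 0.80. Of 8 inducers and transcription factors, 2 rose in MMS D7. These were Runx1, by 0.96, and Junb, a subunit of AP-1, by 0.67 (adjusted p = 0.0407). Runx1 rose as well in MMS D3 (0.64), MMS D14 (0.85) and MMS D28 (0.65). In MMS D28, 4 of the 8 rose and 2 fell, with Junb higher by 0.70, Osm, an inflammatory cytokine, by 0.97 and Cebpb by 1.13. A link between these 8 genes and the members was not tested.

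The members in both tables, Mmp2 and Mmp3, can be set side by side. The unit of the cartilage values is not stated, and the difference between tissues was not tested. In MMS D14 against Control, Mmp2 changed by 2.997 in synovium and 1.89 in cartilage, and Mmp3 by 2.85 and 1.80. In MMS D3, Mmp2 changed by 0.88 in synovium, with all samples above Control, and differed by -0.62 in cartilage, with both samples below Control. In R1 and R2, Mmp2 changed by 2.16 in synovium in both and differed by 0.28 and 1.08 in cartilage.

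The genes most like each member were taken as the 5 with the highest Pearson r of log2 values over all samples of a tissue, which share the group structure and the libraries. Over the 18 synovium samples, Mmp14 was most like Grb10 (0.98), Lum (0.97), Col1a2 (0.97), C1qtnf6 (0.97) and Col3a1 (0.97). Mmp2 was most like Mfap2 (0.95), Cacnb3 (0.95), Cpxm1 (0.95), Dkk3 (0.94) and Pdgfrl (0.94). Mmp3 was most like Ephb3 (0.93), Emb (0.91), Mmp14 (0.91), C1qtnf6 (0.90) and Lum (0.90). Between the members r was 0.91 for Mmp3 with Mmp14, 0.89 for Mmp2 with Mmp3 and 0.88 for Mmp2 with Mmp14, against a median of -0.74 to -0.62 with all other genes. By r over all 1177 other genes, Mmp14 was 3rd and Mmp2 12th for Mmp3. Mmp3 was 31st and Mmp14 34th for Mmp2, and Mmp3 was 57th and Mmp2 87th for Mmp14. Many other listed genes were thus closer to Mmp2 and to Mmp14 than the fellow members were.

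Over the 14 cartilage samples, Mmp13 was most like Akr1b8 (0.92), Wisp2 (0.92), Mt1 (0.90), Nt5dc2 (0.88) and Fbln2 (0.88). Mmp3 was most like Mmp19 (0.87), Trem2 (0.87), Has1 (0.86), Vim (0.85) and Wisp2 (0.83). Mmp2 was most like Col3a1 (0.97), Cthrc1 (0.95), Matn2 (0.95), Mfap2 (0.95) and Aspn (0.94). Mfap2, a microfibril protein gene, was thus among the 5 for Mmp2 in both tissues. Between the members r was 0.73 for Mmp3 with Mmp13, 0.71 for Mmp2 with Mmp3 and 0.43 for Mmp2 with Mmp13. By r over all 1605 other genes, Mmp13 was 33rd and Mmp2 39th for Mmp3. Mmp3 was 38th and Mmp13 113th for Mmp2, and Mmp3 was 33rd and Mmp2 190th for Mmp13.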

How the data were processed

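RNA of 18 synovium and 14 cartilage samples was sequenced; HISAT2 and mm10 are named in the submitters' processing notes. The authors deposited FPKM for synovium, per the file headers, and a signal of unstated unit for cartilage. The cartilage signal was treated here as normalised. How reads were counted or genes selected is not given in the sources used here, and depth is unknown. Groups follow the labels. For each tissue, a single limma model (version 3.58.1, R 4.3.3) with a variance trend took log2 of the value plus 1 in every group. Genes had to reach 1 in at least the number of samples of the smallest group. P-values of the 22 comparisons were adjusted over the whole table by the Benjamini-Hochberg method, and under 0.05 was called. Ratios, chosen after the values were seen, were compared by exact permutation. The fit was tested on simulated data. Tried as alternatives were centring on sample medians, a pseudocount of 0.1, no filter, no trend, a replicate block, fits of the compared pair of groups, and each library left out. A term for the 5 synovium libraries that stand apart, and their removal, were chosen after seeing the data.

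Genes named are the members, the 5 genes most like each by Pearson r (predicted models left out), and genes of 8 lists of related function, up to 4 per list by size of change in the MMS group with the highest D number and others for their value. Members, these lists and 14 marker lists were chosen with earlier results of these data known. A listed gene is left out of its list's counts and is not reported here. Promoter windows are from RefSeq (GRCm38.p6). Python 3.11.15, pandas 2.3.3, numpy 2.4.6, scipy 1.17.1 and matplotlib 3.10.9 were used.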

Additional observations from a re-analysis of the deposited data

Results flagged for a closer look

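Mmp2 lay on opposite sides of Control in the 2 tissues in MMS D3, and the cartilage difference did not pass the test. In synovium all 3 samples were above all Control samples, with a log2 change of 0.88 (limma adjusted p = 0.00225). In cartilage both samples were below both Control samples, with a log2 change of -0.62 (limma adjusted p = 0.312). With 2 samples against 2, such a separation arises easily, and its share over all listed genes is not given. The difference between the tissues was not tested, since the unit of the cartilage values is not stated.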

How the results depend on the processing

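Against Control in synovium, all 270 changes with 1 library left out and all 120 under the other settings kept direction and call. Elsewhere, between MMS D7 and MMS D3 in synovium the count of members called fell from 2 to 1 in a fit of these groups alone and without the 5 libraries that stand apart. R2 against R1 in synovium, never called, changed sign for Mmp2 after centring (0.030), with the term for the 5 libraries (0.048) and without them (0.17), and for Mmp14 without them (0.17). In cartilage the count in MMS D28 against Control went from 1 to 3 after centring and to 3 in a fit of these groups alone. Such fits also gave 2 in place of 0 in MMS D3, 3 in place of 1 in R1 against Control and 3 in place of 1 in MMS D28 against MMS D14. Centring gave 1 in place of 0 in R2 against R1. With 1 library left out, the count ranged from 1 to 2 in MMS D14 against MMS D7 in synovium. In cartilage it ranged from 0 to 1 in MMS D3 and R1 against Control and in R2 against R1, from 1 to 2 in MMS D7 against Control, and from 0 to 2 in MMS D28 against Control and in R2 against MMS D28. Against MMS D14 it ranged from 0 to 3 in MMS D28, 1 to 2 in R1 and 1 to 3 in R2. Changes of sign with 1 library left out, none of them in a result called in the full data, gave these ranges. R2 against R1 in synovium ran from -0.20 to 0.17 for Mmp14, -0.19 to 0.21 for Mmp2 and -0.17 to 0.31 for Mmp3. In cartilage, Mmp2 ran from -0.020 to 1.63 in MMS D28 and Mmp13 from -1.17 to 0.11 in R2, both against Control. Against MMS D28, R1 ran from -1.35 to 0.30 for Mmp2 and -0.33 to 0.43 for Mmp3, and R2 from -0.54 to 1.10 for Mmp2. The cause of these changes was not tested.

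The labels give same-numbered replicates nothing in common but the number. Their deviations from the group means correlated at -0.17 to 0.66 in synovium and -0.51 to 0.42 in cartilage, and 11 of 18 and 2 of 14 libraries matched best with their own number, in synovium a hint from the data that numbers go together. The 5 synovium libraries that stand apart all have the number 3, whose median correlation was 0.27, against 0.099 and 0.11 for numbers 1 and 2. The replicate block changed no member's call (for example 3 of 3 called in MMS D3 in synovium) and took the genes called in R2 against Control in cartilage from 12 to 1. Over all genes, fits of the pair of groups alone moved the counts of calls from 358 to 116 (MMS D7 against MMS D3, synovium), and in cartilage from 12 to 0 (R2 against Control), 290 to 467 (R1 against MMS D14) and 122 to 68 (R1 against MMS D28). Centring took MMS D14 against MMS D7 in synovium from 659 to 407. Without the 5 libraries, MMS D7 against MMS D3 went from 358 to 186. Centring moved the split of higher and lower calls from 187 and 533 to 245 and 419 (R1, synovium), 185 and 531 to 252 and 365 (R2), 745 and 304 to 474 and 331 (R1 against MMS D14), 142 and 216 to 190 and 112 (MMS D7 against MMS D3) and 148 and 511 to 203 and 204 (MMS D14 against MMS D7). In cartilage it went from 109 and 250 to 148 and 184 (MMS D7), 578 and 534 to 624 and 308 (R1), 93 and 258 to 151 and 212 (MMS D28 against MMS D14) and 98 and 24 to 87 and 38 (R1 against MMS D28). With 1 library left out, the cartilage counts ran from 126 to 463 (MMS D3), 197 to 405 (MMS D7), 502 to 944 (MMS D14), 536 to 1182 (R1) and 0 to 23 (R2) against Control. They ran from 5 to 749 (MMS D28), 117 to 361 (R1) and 345 to 657 (R2) against MMS D14, from 13 to 295 (R1) and 751 to 1333 (R2) against MMS D28, and from 138 to 692 in R2 against R1. In synovium they ran from 147 to 597 (MMS D7 against MMS D3) and 375 to 707 (MMS D14 against MMS D7). The number of replicates limits all of these, and depth is unknown.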
